A study of Mus musculus with 6 samples.

Results

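Skeletal muscle genes were followed in RNA from ventral dermis of 6 mice at 3 weeks of age. The set held 50 genes of striated muscle fibres, chosen by gene symbol from knowledge of the tissue, with earlier results of these data known. All 50 were among the 23412 genes of the deposited table. The 3 control mice were HoxB6CreERT/+; R26-YFP/+, and the 3 mutant mice, on the same mixed CD1 and C57BL/6 background, were HoxB6CreERT/+; R26-YFP/+; CatnbΔex3/+, with 1 beta-catenin allele that loses exon 3 and yields a stabilised protein. Both groups thus carried a fluorescent reporter and a tamoxifen-inducible Cre under Hoxb6 control, which is active in ventral mesenchyme, and both were exposed to tamoxifen given to the mother at embryonic day 16.5. The abdominal skin was dissected off the body wall and the epidermis was taken off after trypsin, so the RNA is that of the whole remaining tissue and not of sorted cells. Values per gene do not resolve exon 3, so its loss was not checked here.

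Mouse skin has a thin sheet of striated muscle, the panniculus carnosus, beneath the dermis and its fat. A striated fibre is filled with sarcomeres, in which myosin thick filaments pull on actin thin filaments when calcium released from the sarcoplasmic reticulum binds troponin. Most sarcomere proteins exist in versions for fast fibres, which are built for brief strong contraction and lean on glycolysis and phosphocreatine, for slow fibres, which resist fatigue, and for embryonic or newborn fibres. The versions present in a sample are therefore a guide to the kinds of fibre it may hold, not proof of them. Whether the fibres came from the panniculus carnosus or from body wall muscle left on the skin cannot be told apart with these genes.

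The promoters of 5 members are shown because these genes carry the main results: Myh4, Acta1 and Ckm are among the most abundant members, and Mybpc2 and Mybpc1 are the fast and slow pair with the largest mutant-control difference among the isoform ratios whose groups did not overlap. Each window is from RefSeq (build GRCm38.p6), runs from 250 bases before to 50 bases after the start of transcription, and is read 5′ to 3′ along the gene. Capitals mark every match, on either strand, to the E-box sequences CAGCTG and CAGGTG (bound by MyoD family factors), to the MEF2 box, to the MCAT element CATTCC (bound by TEAD factors) and to the CArG box (bound by serum response factor).
Myh4, chr11:67237562-67237861, plus strand: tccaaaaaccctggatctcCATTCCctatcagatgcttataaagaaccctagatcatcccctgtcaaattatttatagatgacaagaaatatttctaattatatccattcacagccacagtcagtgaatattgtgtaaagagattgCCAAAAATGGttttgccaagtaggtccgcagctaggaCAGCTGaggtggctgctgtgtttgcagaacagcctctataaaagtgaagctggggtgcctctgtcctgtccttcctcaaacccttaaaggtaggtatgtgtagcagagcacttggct
Acta1, chr8:123894726-123895025, minus strand: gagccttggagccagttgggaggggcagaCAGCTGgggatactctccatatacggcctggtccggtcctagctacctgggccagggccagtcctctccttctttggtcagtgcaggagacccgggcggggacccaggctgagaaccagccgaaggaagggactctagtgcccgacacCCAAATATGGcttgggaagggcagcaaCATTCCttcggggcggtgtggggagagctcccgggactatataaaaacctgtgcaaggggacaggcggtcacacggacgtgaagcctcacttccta
Ckm, chr7:19410844-19411143, plus strand: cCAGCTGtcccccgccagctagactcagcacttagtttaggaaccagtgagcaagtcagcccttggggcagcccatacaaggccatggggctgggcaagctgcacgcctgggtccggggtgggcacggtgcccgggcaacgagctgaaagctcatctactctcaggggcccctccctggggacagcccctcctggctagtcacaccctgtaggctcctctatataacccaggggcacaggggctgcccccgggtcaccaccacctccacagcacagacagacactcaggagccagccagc
Mybpc2, chr7:44524620-44524919, minus strand: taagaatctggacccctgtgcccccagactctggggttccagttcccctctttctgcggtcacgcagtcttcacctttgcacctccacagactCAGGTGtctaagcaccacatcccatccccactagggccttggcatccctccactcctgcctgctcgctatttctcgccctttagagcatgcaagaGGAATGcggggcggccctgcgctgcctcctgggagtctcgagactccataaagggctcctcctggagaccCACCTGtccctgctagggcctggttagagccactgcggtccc
Mybpc1, chr10:88605103-88605402, minus strand: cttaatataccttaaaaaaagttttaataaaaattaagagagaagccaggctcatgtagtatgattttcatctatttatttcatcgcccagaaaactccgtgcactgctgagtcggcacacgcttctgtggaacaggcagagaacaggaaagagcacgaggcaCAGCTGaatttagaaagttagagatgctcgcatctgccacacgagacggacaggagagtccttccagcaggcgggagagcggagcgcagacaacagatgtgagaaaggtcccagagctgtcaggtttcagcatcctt

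RefSeq windows were matched for 40 of the 50 members. The E-box CAGCTG occurred in 19 of the 40 (47.5%), against 18.3% of 27025 genes with a window of the same length. The CArG box occurred in 6 members (15%, against 1.81% of all genes), the MCAT element in 12 (30.0%, against 16.6%), the MEF2 box in 5 (12.5%, against 4.23%) and the E-box CAGGTG in 10 (25.0%, against 22.6%). By fibre type, the E-box CAGCTG was in 5 of 10 fast and 4 of 9 slow members with a window. The Myh4 and Acta1 windows above each hold a CAGCTG E-box, a CArG box and an MCAT element, and the Mybpc1 window holds a single CAGCTG E-box. These matches describe the letters of the windows and do not show binding.

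Reads assigned to genes, recovered from the steps of the deposited values, totalled 7799565 to 9675359 in the control libraries and 11839144 to 13478910 in the mutant ones. The values are FPKM, fragments scaled to gene length and library size, so that genes can be compared with each other. A test was made where the mean of the 6 libraries reached 1 FPKM, which 41 of the 50 members and 12560 genes in all did, on the log2(FPKM + 1) scale. The 9 that stayed below it were Myh7, Myl2, Myl3, Tnnc1, Myh3, Cacng1, Myod1, Myog and Pax7. Of each control library's gene reads the members together took 1.63%, 0.811% and 1.81% (controls 1 to 3), and of each mutant library's 1.47%, 1.59% and 1.0% (mutants 1 to 3), so that control 2 was lowest and the groups overlapped. Titin (Ttn), the giant spring of the sarcomere, supplied 40.9% to 54.6% of these reads from a very long transcript, while per length it ranked below Acta1 and Myh4 in every library. In a bulk sample fewer fibres and less RNA per fibre cannot be told apart.

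The muscle in these samples carried fast isoforms. Among myosin heavy chains, the motor proteins that set the speed of a fibre, Myh4 (chromosome 11, 67238029 to 67260446, GRCm38), of the fastest glycolytic fibres, made up 82.4%, 67.4% and 80.4% of the summed FPKM of 6 heavy chain genes in the controls against 81.8%, 78.8% and 80.2% in the mutants. Myh1, of intermediate fast fibres, made up 14.4%, 27.4% and 17.3% in controls and 16.3%, 18.5% and 17.7% in mutants. Control 2 stands apart, with a lower Myh4 and a higher Myh1 share than any other library. Myh2, of fast oxidative fibres, held 1.38% to 4.24%, and Myh8, the perinatal heavy chain, 0.490% to 0.896%. The slow heavy chain Myh7 had 2, 1 and 1 reads in the control libraries and 2, 5 and 4 in the mutant ones. The embryonic Myh3 had 11, 4 and 6 reads against 13, 6 and 8. Myh1, Myh2, Myh3, Myh4 and Myh8 lie side by side on chromosome 11 between 67078300 and 67308634 and are close in sequence. How reads matching several of them were counted is not given in the sources used here, so the split among them is uncertain.

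The other sarcomere families gave the same picture. Of the troponin I pair, which holds the thin filament off between contractions, fast Tnni2 held 96.8% to 99.1% of the summed FPKM in each library. Fast Tnnc2, the calcium sensor, held 99.6% to 100% against slow Tnnc1, which had 1, 2 and 1 reads in the control libraries and 0, 2 and 4 in the mutant ones. Fast Tnnt3, which ties troponin to tropomyosin, held 95.2% to 97.9% against Tnnt1. The slow ventricular-type light chain Myl2 had 0 to 2 reads and Myl3 1 to 4, whereas the fast light chains Mylpf and Myl1 had 704 to 4728 and 689 to 3882. Not every slow-type gene was near absent. Mybpc1, the slow form of the thick filament protein myosin binding protein C, was at 7.87 to 16.2 FPKM, and Casq2, the slow and cardiac calsequestrin that buffers calcium, at 2.16 to 5.63 FPKM. Genes that mark heart muscle were low: Myh6, Nppa, Nppb, Tnni3, Myl7, Ryr2 and Bmp10 summed to 0.728 to 0.965 FPKM, with Myl7 at 0 in all 3 controls and Bmp10 at 0 in all 3 mutants.

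**Figure D1:**
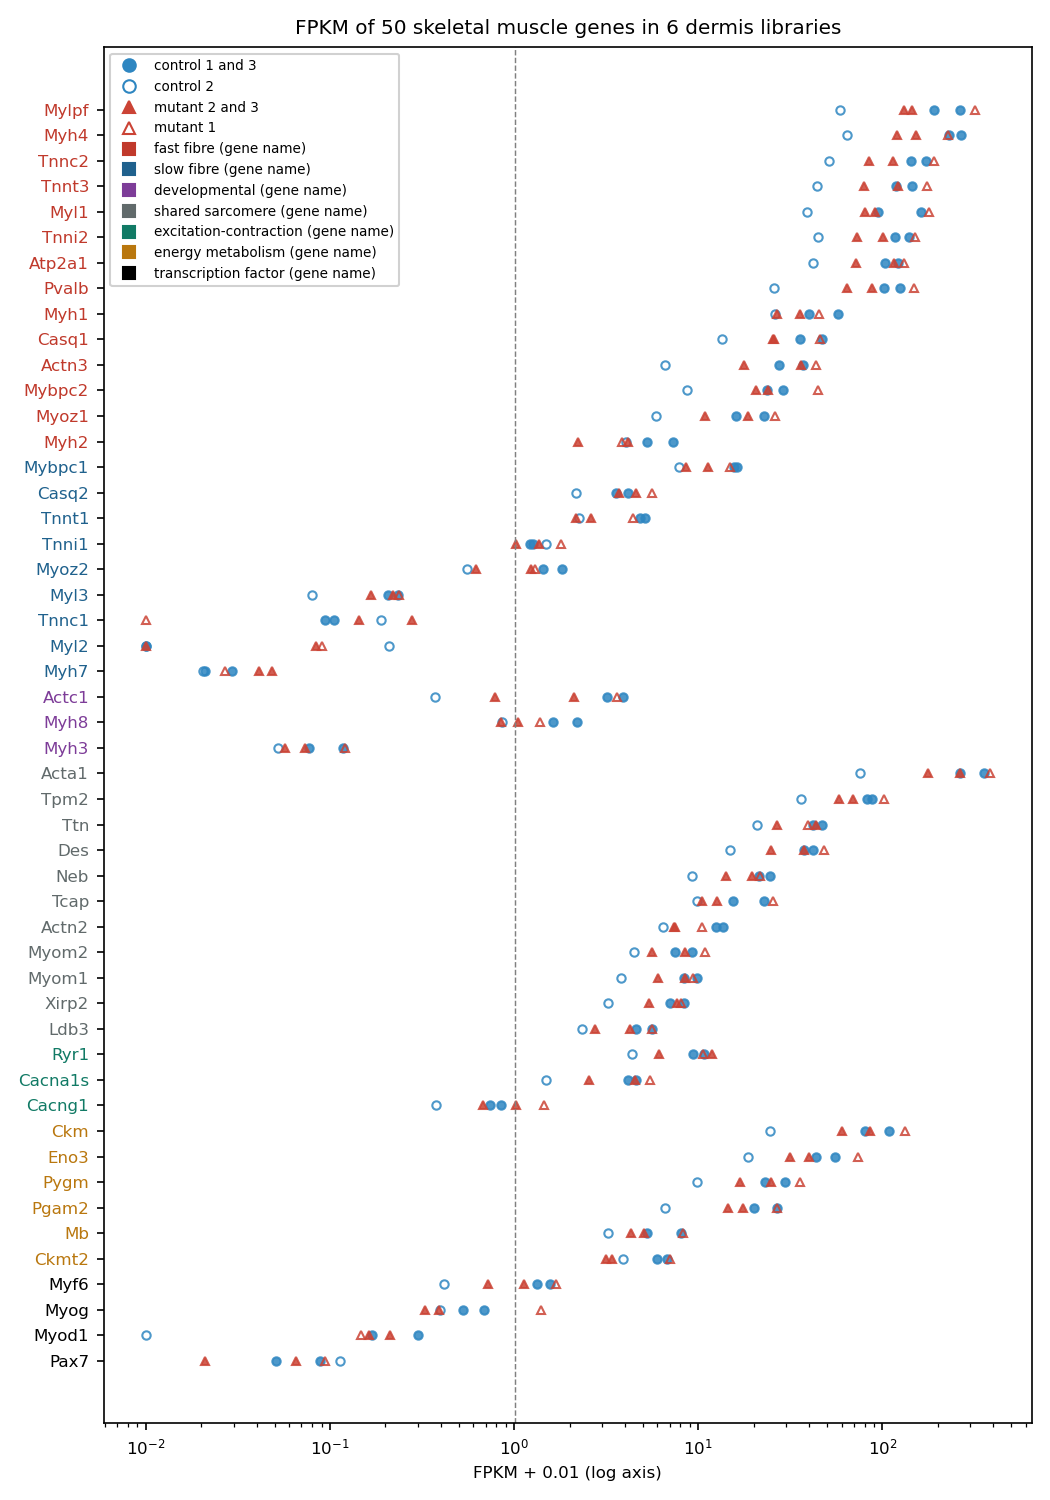
FPKM + 0.01 on a log axis for the 50 muscle genes, grouped by role and ordered by mean; circles are the 3 control libraries and triangles the 3 mutant libraries, with control 2 and mutant 1 drawn open. The dashed line marks a mean of 1 FPKM, the level for testing. Acta1 reaches 383 FPKM and the fast member Mylpf 320, slow Myh7, Myl2, Myl3 and Tnnc1 lie below 1, and control 2 is the lowest point in most rows.

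Muscle RNA varied widely between mice of the same group. Acta1 (chromosome 8, 123891769 to 123894751), the skeletal alpha-actin and the most abundant member, measured 263, 75.6 and 354 FPKM in the controls, in order of their number, against 383, 265 and 177 in the mutants. Control 2 was the lowest of the 6 libraries and mutant 1 the highest, and the other controls and mutants interleaved. Ckm (chromosome 7, 19404776 to 19422841), the muscle creatine kinase that regenerates ATP, had the same order at the ends, with 80.2, 24.5 and 108 FPKM in the controls against 132, 85.2 and 60.5 in the mutants. In 36 of 41 tested members control 2 was the lowest library, as in 47.1% of all tested genes. Mutant 1 was the highest library in 26 members and control 3 in 12, and either of them was highest in 9129 of all 12560 tested genes. Centred on each gene's mean, the median member stood at 0.21, -0.88 and 0.44 log2 units in the controls against 0.51, 0.06 and -0.34 in the mutants. As a share of each library's summed FPKM, the members took 0.898%, 0.368% and 1.06% in controls and 0.970%, 0.872% and 0.560% in mutants. On that share control 3 was highest, not mutant 1, and control 2 was still lowest.

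The spread among the controls was larger than for most genes. The highest control exceeded the lowest by a median of 2.92-fold over the tested members, against 1.27-fold over all tested genes, and among mutants by 2.04-fold against 1.36-fold. On the log2(FPKM + 1) scale the control SD had a median of 0.70 for the members and 0.15 for all tested genes, and 40 of the 41 members lay in the top 10% of all tested genes (SD of at least 0.34). Tnni1, slow troponin I, was the exception, at 1.21, 1.47 and 1.26 FPKM in the controls against 1.79, 1.01 and 1.35 in the mutants, from 21 to 39 reads. By role, fast members had a median control range of 3.43-fold, up to 5.60-fold for Actn3, the fast alpha-actinin that anchors thin filaments, while slow members had 2.05-fold. Control 2 was the lowest control in 40 of 41 members, and in 66.8% of all tested genes. Mutant 1 was the highest mutant in 38 of 41 members, and in 77.9% of all tested genes. Mutant 3 was the lowest mutant in 38 of 41 members, and in 17.4% of all tested genes, so its low muscle values did not go with low values of most genes.

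**Figure D2:**
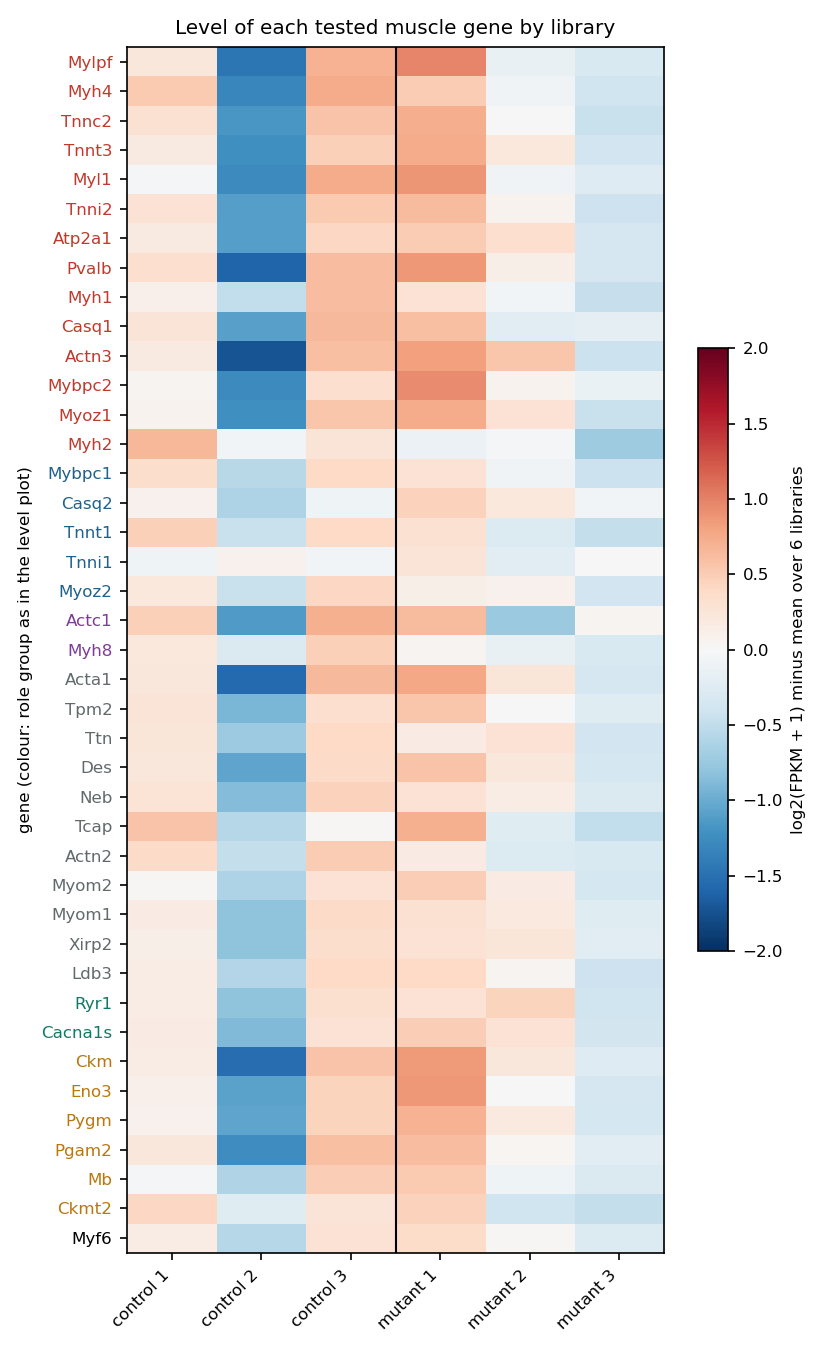
Level of each of the 41 tested muscle genes by library, as log2(FPKM + 1) minus the gene's mean over the 6 libraries (red above, blue below); the black line divides controls from mutants. The column of control 2 is blue in most rows and that of mutant 1 mostly red, while Myh2 and Tnni1 depart from this.

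Between mutant and control mice no muscle gene passed the test. Of 41 members, 0 were called higher and 0 lower (limma with Benjamini-Hochberg adjustment over all genes, threshold 0.05), where 0.143% of all tested genes were called higher and 0% lower. At an unadjusted limma p under 0.05, 0 members were higher and 1 lower, against 10.5% and 0.748% of all tested genes. Over all genes that unadjusted count was 1323 higher and 94 lower, and 1267 higher and 815 lower after median-of-ratios scaling. Limma-voom on recovered reads also called 0 members after adjustment. Unadjusted, it had 0 members higher and 3 lower, and 1152 of all tested genes higher and 889 lower. In each of the 41 the values of the groups overlapped, against 13% of all tested genes with every mutant above and 2.65% with every mutant below every control. The median log2 difference was 0.19 for the members and 0.09 for all tested genes, with 31 members above 0 and 10 below, where 28.7% of all tested genes were below 0. Adjusted p ran from 0.367 to 0.994. The sign of the median rested on single libraries. It was -0.22 without control 2 and -0.02 without mutant 1, and it was -0.38 in a fit with library sex added. Controls 1 and 2 had Xist at 55.5 and 66.2 FPKM, with 2 and 3 reads from Y-linked genes. The other 4 libraries had Xist at most at 6.47 FPKM, with 2857 to 4261 Y-linked reads. That highest Xist was in mutant 2, which had 3494 Y-linked reads. By these genes controls 1 and 2 look female, and control 3 and the mutants male. Sex and genotype are thus in part confounded in the main test, and the fit with library sex added sets the mutants against control 3.

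**Figure D3:**
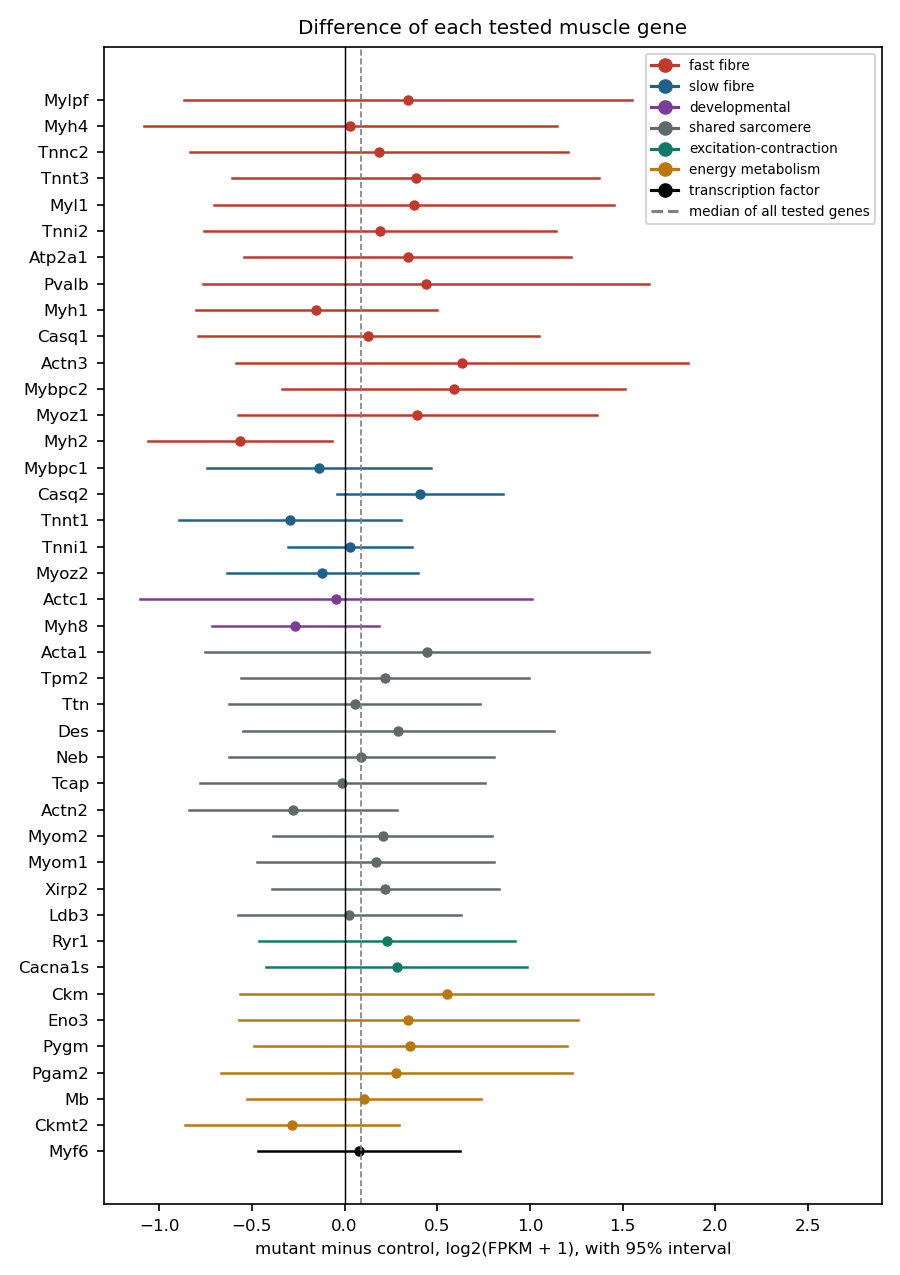
Mutant minus control difference of each tested muscle gene on the log2(FPKM + 1) scale with its 95% interval from limma; colours give the role and the dashed line the median of all tested genes, 0.09. Every interval except that of Myh2 spans 0, and the intervals of all fast genes but Myh1 reach beyond 1 log2 unit from 0.

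By role, the 14 fast members had a median difference of 0.34, with 12 above 0, and 0 called. That median was -0.27 without control 2, -0.02 without mutant 1 and -0.46 with library sex in the fit. Mylpf (chromosome 7, 127208890 to 127214298), the fast regulatory light chain, was at 190, 58.8 and 264 FPKM in the controls against 320, 145 and 131 in the mutants. Its difference was 0.34 (95% interval -0.86 to 1.55; limma adjusted p = 0.895). Myh4 was at 228, 64.1 and 266 FPKM in the controls against 227, 152 and 121 in the mutants, a difference of 0.03 (interval -1.08 to 1.15; limma adjusted p = 0.992), so changes of up to about 1 log2 unit either way lie within the error. Control 2 was the lowest library for both genes. Mybpc2 (chromosome 7, 44501699 to 44524656), the fast myosin binding protein C, was at 23.5, 8.72 and 28.8 FPKM in the controls against 44.6, 23.7 and 20.5 in the mutants (difference 0.59, interval -0.34 to 1.52; limma adjusted p = 0.692). Actn3 had the largest positive difference of any member, 0.63 (limma adjusted p = 0.764), from 23.7 ± 15.6 FPKM in controls to 32.4 ± 13.2 in mutants (mean ± SD, n = 3 each).

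Myh2 was the member with the smallest p. It stood at 7.28, 4.03 and 5.26 FPKM in the controls against 3.85, 4.16 and 2.22 in the mutants, from 287 to 754 reads. Mutant 2 exceeded control 2, and the other mutants lay below every control. The difference was -0.57 (SE 0.22, interval -1.06 to -0.07), which did not pass over all genes (limma adjusted p = 0.367). Among the fast troponins, Tnnt3 measured 118, 43.9 and 145 FPKM in the controls against 175, 121 and 79.5 in the mutants, a difference of 0.38. Tnnc2 measured 142, 51.0 and 172 against 191, 115 and 84.3 FPKM, and Tnni2 118, 44.4 and 140 against 150, 101 and 72.5, a difference of 0.19 for each. In all 3 control 2 was lowest and mutant 1 highest. Myh1 measured 39.8, 26.0 and 57.3 FPKM in the controls against 45.3, 35.7 and 26.6 in the mutants, a difference of -0.15. The calcium pump Atp2a1, which refills the sarcoplasmic reticulum, had 0.34, the calcium buffer parvalbumin (Pvalb) 0.44, the reticulum calcium store protein Casq1 0.13, the essential light chain Myl1 0.37, and the Z-disc calsarcin Myoz1 0.39. For these 9 genes the limma adjusted p ran from 0.830 to 0.958.

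The 5 tested slow members had a median difference of -0.12, with 2 above 0 and 3 below, and 0 called. Leaving out control 3 or mutant 3 moved this median to 0.03 or 0.04. Adding library sex to the fit, which sets the mutants against control 3, put slow members at -0.47. Fast members stood at -0.46 in that fit, so the gap between fast and slow members in the main test was not seen there. Casq2 (chromosome 3, 102086415 to 102146514) was at 4.16, 2.16 and 3.57 FPKM in the controls against 5.63, 4.58 and 3.68 in the mutants, so that control 1 lay above mutant 3 (difference 0.41, interval -0.04 to 0.85; limma adjusted p = 0.497). Tnnt1 (chromosome 7, 4504570 to 4516382), slow troponin T, was at 5.09, 2.23 and 4.80 FPKM in the controls against 4.43, 2.61 and 2.16 in the mutants (difference -0.29, limma adjusted p = 0.782). Mybpc1 (chromosome 10, 88518279 to 88605152) was at 15.5, 7.87 and 16.2 FPKM in the controls against 14.9, 11.3 and 8.62 in the mutants (difference -0.14, limma adjusted p = 0.918). The lowest library was mutant 3 for Tnnt1 and control 2 for Mybpc1. Tnni1 and the slow calsarcin Myoz2 had differences of 0.03 and -0.12.

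Of the developmental isoforms, Myh8 was at 1.62, 0.851 and 2.18 FPKM in the controls against 1.36, 1.04 and 0.841 in the mutants (difference -0.27, limma adjusted p = 0.724). Actc1 (chromosome 2, 114047282 to 114053548), the cardiac alpha-actin that young skeletal fibres also make, had the widest range among the controls, 10.7-fold. It was at 3.17, 0.363 and 3.90 FPKM in the controls against 3.60, 0.775 and 2.10 in the mutants. These values did not separate the groups, and Acta1 exceeded Actc1 in every library, at 98.8% to 99.7% of their sum.

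The 11 shared sarcomere and cytoskeletal members had a median difference of 0.17, with 9 above 0, and all 11 were lowest in control 2. Tpm2, the beta-tropomyosin of the thin filament, measured 82.6, 36.3 and 87.5 FPKM in the controls against 103, 69.5 and 58.4 in the mutants (difference 0.22). Acta1 had a difference of 0.45 (interval -0.75 to 1.65; limma adjusted p = 0.850). Actn2 (chromosome 13, 12269426 to 12340760), the alpha-actinin found in all fibres, went the other way, at 12.4, 6.42 and 13.6 FPKM in the controls against 10.5, 7.49 and 7.36 in the mutants (difference -0.28, limma adjusted p = 0.780). The remaining members were titin (Ttn, 0.05), the thin filament ruler nebulin (Neb, 0.09), desmin (Des, 0.29), telethonin (Tcap, -0.01), the Z-disc proteins Ldb3 (0.03) and Xirp2 (0.22), and the M-band proteins Myom1 (0.17) and Myom2 (0.21). Desmin and Tpm2 are also made by smooth muscle, whose 8 marker genes had a median difference of 0.33 with 0 called and summed to 106 to 161 FPKM in controls and 141 to 205 in mutants. The part of smooth muscle in these 2 genes was not tested.

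Of the excitation-contraction genes, Ryr1, the calcium release channel, measured 9.38, 4.37 and 10.8 FPKM in the controls against 10.5, 11.9 and 6.11 in the mutants (difference 0.23). Cacna1s, the voltage sensor that opens it, measured 4.13, 1.47 and 4.56 against 5.44, 4.54 and 2.55 FPKM (difference 0.28). Control 2 was lowest for both and the groups overlapped. Cacng1, the gamma subunit of that sensor, was below the level for testing, at 0.645 ± 0.246 and 1.04 ± 0.391 FPKM from 7 to 34 reads. The 6 energy genes had a median difference of 0.31 with 5 above 0. Ckm had the largest, 0.55 (interval -0.56 to 1.66; limma adjusted p = 0.780), and the glycolytic enolase Eno3 was at 43.4, 18.6 and 55.0 FPKM in the controls against 73.8, 39.9 and 31.6 in the mutants. Glycogen phosphorylase (Pygm), the phosphoglycerate mutase Pgam2 and myoglobin (Mb), the oxygen store, had 0.36, 0.28 and 0.10. Ckmt2, the mitochondrial creatine kinase of oxidative muscle, was at 6.72, 3.90 and 5.99 FPKM in the controls against 6.98, 3.41 and 3.16 in the mutants, a difference of -0.28 (limma adjusted p = 0.780).

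Myogenic transcription factors were at the bottom of the range. Myf6, which is kept on in mature fibres, was the member of this group that was tested, at 1.32, 0.404 and 1.55 FPKM in the controls against 1.68, 1.13 and 0.716 in the mutants (difference 0.08, limma adjusted p = 0.958). Myog, which drives differentiation, had 9 to 40 reads per library, with 40 in mutant 1 and at most 15 elsewhere. Myod1 had 0 to 8 reads and the satellite cell factor Pax7 1 to 7. These 3 genes were below the level for testing.

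Isoforms were also compared within each library, as shares of summed FPKM and as log2 ratios with a pseudocount of 1. The amount of muscle stays in part in these ratios: where the slow partner is near 0 the ratio follows the level of the fast gene, and control 2 was lowest in Mylpf against Myl2 (5.64, other libraries 6.94 to 8.21) and in Myh4 against Myh7 (6.01). The fast share of summed myosin heavy chain was 99.4%, 99.0% and 99.3% in controls and 99.5%, 99.4% and 99.4% in mutants, and every mutant lay above every control (exact two-sided permutation test, p = 0.1, the smallest that 3 against 3 libraries can give; adjusted p = 0.40 over 12 isoform comparisons). The difference of group means was 0.174 percentage points, while control 1 at 99.37% and mutant 3 at 99.38% nearly met. With Myh3 and Myh8 left out of the sum that difference was -0.00852, with the groups overlapping. Myh8 was at 0.713% ± 0.162 in controls and 0.530% ± 0.036 in mutants (SD, n = 3 each). Mybpc2 held 60.3%, 52.5% and 64.1% of the sum of Mybpc1 and Mybpc2 in controls and 74.9%, 67.7% and 70.4% in mutants. The log2 ratio of the pair was higher by 0.73 in mutants, with the groups apart (exact permutation p = 0.1, adjusted p = 0.40). Tnnt3 against Tnnt1 was also apart (exact permutation p = 0.1, adjusted p = 0.40). Its group means differed by 0.68, but control 3 at 4.65 and mutant 3 at 4.67 nearly met. Control 2, low in muscle, was the lowest library in both ratios, at 0.13 and 3.80, and its part in them was not tested.

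The other 9 ratios overlapped between the groups. Tnni2 against Tnni1 differed by 0.16 and Casq1 against Casq2 by -0.28, in the opposite direction. The share of Actn3 in the alpha-actinin pair was 68.9%, 50.7% and 73.2% in controls and 80.5%, 82.8% and 70.7% in mutants, with mutant 3 below control 3. Myoz1 held 91.5% to 92.7% of the calsarcin pair in controls and 93.9% to 95.3% in mutants, although its log2 ratio with a pseudocount of 1 overlapped. None of these comparisons can reach a p under 0.1 with 3 mice a group, and 0 passed after adjustment.

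**Figure D4:**
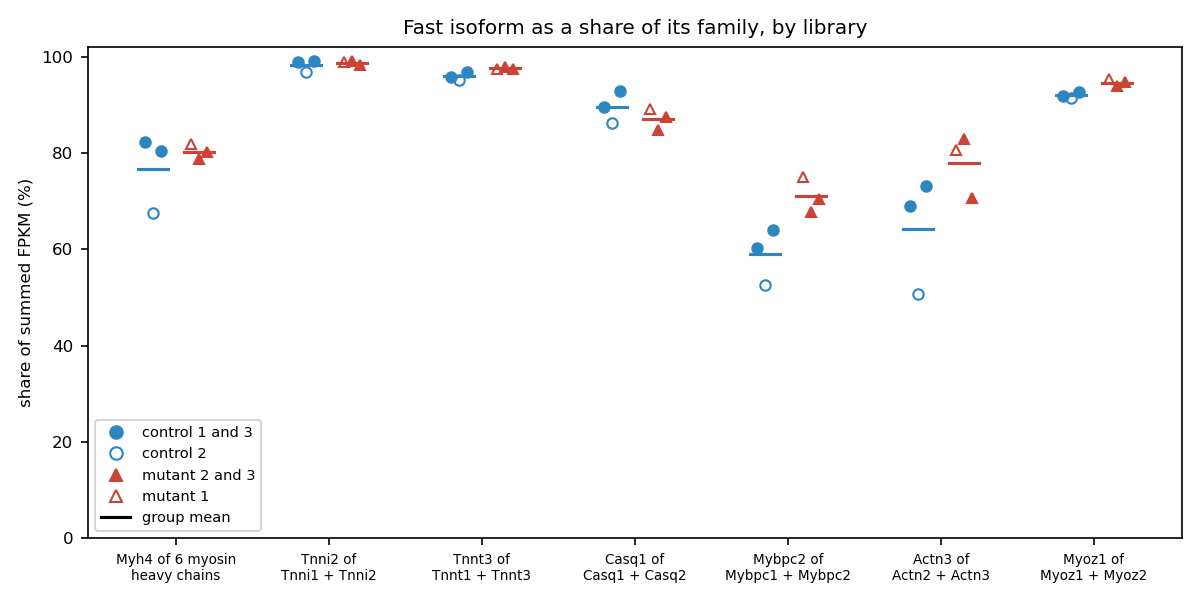
Share of the fast isoform in its family's summed FPKM (percent, axis from 0) by library; circles are controls, triangles mutants, open symbols control 2 and mutant 1, and bars the group means. The Mybpc2 share lies at 52.5% to 64.1% in controls and 67.7% to 74.9% in mutants. The Tnnt3 and Myoz1 shares are also apart, with mutants above by less, while Myh4, Tnni2, Casq1 and Actn3 overlap.

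Each gene's log2 level was also taken relative to the library's median over the tested members. On this relative scale 6 of 41 members had groups that did not overlap. By group means, Mybpc2 and Atp2a1 were higher in mutants by 0.43 and 0.18. Tnnt1, Actn2, Myh1 and Mybpc1 were lower, with differences of means of -0.45, -0.43, -0.31 and -0.29. The groups nearly met for Myh1 (control 1 at -0.104, mutant 2 at -0.111) and Atp2a1 (control 3 at -0.020, mutant 1 at 0). Over all tested genes 1.96% were apart with mutants higher and 0.0876% with mutants lower, but a gene that varies less than that median takes on the inverse of the muscle spread on this scale, so those shares are no like-for-like background. The same holds for the less variable members: in control 2 Tnni1 stood at 0.96, Tnnt1 at 0.44 and Mybpc1 at 0.34, while Actn3 stood at -0.84 and Pvalb at -0.72. Myh2 had the largest relative difference, -0.72, with overlapping groups. This scale was chosen after the values were seen and carries no test.

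Other genes of striated muscle, 87 in 5 lists that hold none of the members, varied in the same way. Of the 68 tested, 0 were called (limma), 1 was higher at an unadjusted p under 0.05, 59 were lowest in control 2 and the median difference was 0.07. Among 24 thin filament and Z-disc genes the median was 0.05. Tpm1, the alpha-tropomyosin also made outside muscle, was at 81.7 to 121 FPKM in controls and 94.3 to 146 in mutants, Myom3, an M-band protein of slower fibres, had a difference of -0.30 (limma adjusted p = 0.458) and the chaperone Cryab 0.34. Among 20 triad and membrane genes the median was 0.06, and Cacna2d1, a calcium channel subunit not confined to muscle, was at 3.68, 2.24 and 4.03 FPKM in the controls against 5.59, 4.43 and 4.25 in the mutants, all mutants above all controls (difference 0.43, limma adjusted p = 0.398). The sarcoglycan Sgca had 0.19 and Atp2a2, the calcium pump of slow fibres and many other cells, -0.04.

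Of 9 neuromuscular junction genes, Chrnb1, a subunit of the acetylcholine receptor, was the tested gene, at 1.23 to 1.75 FPKM in controls and 1.2 to 1.66 in mutants. Among 15 metabolic genes the median was 0.17, with Adssl1, of the muscle purine cycle, at 0.44, phosphofructokinase Pfkm at 0.34 and the aldolase Aldoa at 0.12. Among 8 myogenesis and atrophy genes the median was 0.17. Asb2, a ubiquitin ligase subunit, had 0.45, and Mef2c, a transcription factor of muscle and other cells, 0.33, with Mef2c at 3.90 to 6.30 FPKM in controls and 6.39 to 7.93 in mutants.

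Most members varied together over the 6 libraries. Pearson's r between a member and the centred median of the members, on the log2 scale, had a median of 0.97, and 32 of 41 members were above 0.9, as were 2.82% of all tested genes. The members are part of that median, in which control 2 is lowest and mutant 1 highest. Myh2 (r = 0.40) and Tnni1 (r = 0.02) followed it least. The 10 genes outside every list that followed it most closely were Trak1, 3425401B19Rik, Tmod1, Mypn, Cap2, Hoxa7, Pkn3, Synm, Prr14 and Tmem48, with r from 0.98 (Tmem48) to 0.997 (Trak1). Tmod1 caps thin filaments, Mypn (myopalladin) is a Z-disc protein and Synm (synemin) an intermediate filament protein of muscle. Mypn was at 2.15, 0.865 and 2.5 FPKM in the controls against 2.58, 2.20 and 1.34 in the mutants, with control 2 lowest and mutant 1 highest as for Acta1.

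Markers of several neighbouring tissues had the same libraries at the ends as muscle. So did the summed FPKM of all genes, at 192880 in control 2 and 281766 in mutant 1. For the fibroblast, adipocyte, smooth muscle and Schwann cell markers the summed FPKM had its minimum in control 2 and its maximum in mutant 1. The 8 fibroblast markers summed to 5061, 2691 and 10421 FPKM in controls and to 13555, 9449 and 9475 in mutants, and mutant 3, the lowest mutant in muscle, was close to mutant 2 here. Their median difference was 1.06, with 0 called and 5 of 8 apart with mutants above, against 13% of all tested genes. The 8 adipocyte markers summed to 398, 352 and 366 FPKM in the controls against 634, 432 and 409 in the mutants. The adipocyte median difference was 0.82, with 0 called and 4 of 8 apart with mutants above. The 8 keratinocyte and hair markers, at 3101, 3110 and 3300 FPKM in the controls against 3631, 2014 and 3076 in the mutants, had a median of -0.01, with mutant 1 highest and mutant 2 lowest. The part of these tissues in the muscle values was not tested.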

How the data were processed

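Ventral dermis of 3 control and 3 mutant mice was sequenced as stranded total RNA, per the labels' protocols. Per the submitters' processing notes, GSNAP, HTSeq and build mm10 were used. Options, annotation and gene lengths are not stated there. FPKM values, 1 per gene and library, are as deposited by the authors. The sums of FPKM were not equal (192880 to 281766) and the values were not rescaled. Whole reads per gene were recovered from the FPKM steps (a solution for 21592 of 21592 genes above 0, relative tolerance 3e-09) and used for depth and an added limma-voom fit. Where several solutions existed the lowest was kept, which can understate the reads of a gene.

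The main test was limma 3.58.1 (R 4.3.3) with an intensity trend on log2(FPKM + 1), genes with a mean FPKM of at least 1, no covariate, two-sided, Benjamini-Hochberg adjustment over 12560 genes and a threshold of 0.05. The scale understates changes of low genes. Each library is labelled as its own mouse, and p-values rest on the variation among these mice. The scripts were tested on simulated data. Isoform comparisons used exact permutation tests (scipy 1.17.1). Locations are from GENCODE M21 (GRCm38). Values in every library are given for all myosin heavy chain and troponin members that bear on a result and, per role, for the 2 members with the smallest p and the 2 most abundant. Of other muscle lists, the 2 genes with the smallest p and the most abundant are named, and 10 genes by likeness. The members, lists and rules were chosen with earlier results of these data known. Alternatives were another pseudocount, other filters, 3 scalings, a replicate block, library sex, each library left out and, added after the data were seen, limma-voom, 2 sets of libraries left out and the relative scale.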

Additional observations from a re-analysis of the deposited data

How the results depend on the processing

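No muscle gene was called in either direction under any alternative run (0 higher and 0 lower with limma throughout). At an unadjusted limma p under 0.05 the most were 19 of 41 members lower, without control 2 and mutant 1 together. In that run 243 of all 12560 tested genes were lower at this level, and 40 of the 41 members were below 0. Those libraries were left out after the data were seen. The median member difference, 0.19, ran from -0.22 (without control 2) to 0.45 (without control 3) when single libraries were left out, that of fast members from -0.27 to 0.68 and that of slow members from -0.37 to 0.04. Without control 2 and mutant 1 together the median over all members was -0.45, with -0.58 for fast and -0.46 for slow members. With library sex as a covariate, and equally without both Xist-high controls, fast members stood at -0.46 and slow members at -0.47. Under median-of-ratios, quantile and non-muscle-sum scaling the median member difference was 0.07, 0.08 and 0.06. The medians of all genes were then -0.01, -0.03 and -0.03. The difference of group means in the fast heavy chain share ran from 0.075 to 0.235 percentage points and was -0.00852 without the developmental isoforms. Over all genes, 18 were called higher and 0 lower; other settings gave 9 higher with a pseudocount of 0.1, 4 with no filter, 32 after quantile normalization, 69 after scaling to the non-muscle sum, 10 higher and 1 lower with library sex, 181 and 4 with limma-voom, 198 and 68 without both Xist-high controls, 9 and 1 without control 2 and mutant 1, and 3 to 189 higher and 0 to 4 lower with single libraries left out (189 without control 3, 3 without mutant 2). A replicate block gave 67 higher and 1 lower, and 0 members. Deviations of same-numbered libraries had correlations of 0.00159, 0.0367 and -0.0819, and those of other control and mutant pairs ran from -0.273 to 0.284. Whether same-numbered libraries share more than a number cannot be told from these values. The causes of these shifts were not tested. Depth limits the members with few reads: Myh7, Myl2, Myl3, Tnnc1, Myh3, Myod1, Myog and Pax7.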
